A study of Mus musculus with 6 samples.

Results

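Hepatic levels were examined for 8 genes of the glucose-sensing axis that runs through ChREBP and *Txnip*. They are *Mlxipl*, which encodes ChREBP, its dimer partner *Mlx*, the alpha-arrestins *Txnip* and *Arrdc4*, the antisense gene *Gm15441*, and the metabolic enzymes *Pklr*, *Khk* and *Tkfc*. Each was found by its symbol, so that 8 of the 24421 genes in the deposited table were followed. These genes were picked with the deposited comparison of the genotypes known, and the values of that comparison are not given here. Livers of 3 WT and 3 *Pai-1*+/- mice were profiled by RNA-seq. The sample labels give the strain as C57BL/6, the study as C57BL/6 J, and the labels give an age of 21 weeks; the animals ate standard chow freely and were untreated. The study describes male mice, with the heterozygotes obtained by crossing *Pai-1*-/- and WT animals. *Pai-1* encodes a serpin that blocks the proteases tPA and uPA and so restrains clot breakdown, and the allele is carried by the whole animal and not by a chosen cell type.

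The measurement used is a mean that the authors took across the 6 libraries after each was scaled by its size factor, and it is termed the mean normalized count here. It pools both genotypes. Counts per animal are headed by 6 animal numbers that match no sample label, and they were not used. No value below is therefore assigned to WT or to *Pai-1*+/- livers, no difference between genotypes is given, and no spread between animals accompanies the means. A gene whose level differs between the genotypes has a mean that may stand for neither. Differences between genes are given as values without a test, so which neighbours in an order of levels differ by more than the spread between animals was not assessed. The means of all genes add up to 30045982, which is the average total of scaled counts assigned to the listed genes in a library. Of the 24421 genes, 12971 had a mean of at least 10. Hepatocyte genes dominated, since all 7 markers had high values, with a median at percentile 99.7 of the genes compared per kilobase. Fewer cells of a type and less RNA per cell cannot be told apart in such whole-tissue samples.

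ChREBP is a transcription factor that is activated when glucose metabolites accumulate in the hepatocyte. It pairs with MLX and binds carbohydrate response elements, which are made of a pair of E-box-like sites with a short spacer, and it raises genes of glycolysis, fructose use and lipogenesis. *Txnip* encodes thioredoxin-interacting protein, which binds thioredoxin and limits glucose uptake, and it is among the best known targets of ChREBP and its relative MondoA.

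The bases before the annotated starts are shown because the members are grouped by their relation to ChREBP, a factor that reads this sequence. RefSeq sequences on GRCm38.p6 were matched for 7 of the 8 members, all but *Gm15441*, with 9 start sites among them, and 250 bases before each start were searched on both strands. The search used the E-box CACGTG, the carbohydrate response element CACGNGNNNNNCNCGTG and a relaxed form of it, CACGNGNNNNNCNCNNG, which contains every match of the stricter element and was chosen after the sequences had been seen. Capitals mark the matched bases. The strict element was found in 1 member, *Pklr*, before the downstream of its 2 starts, from which the liver form of the enzyme is transcribed. It lies 170 to 154 bases before that start, at chr3:89136453-89136469, outside annotated exons. The 250 bases before this start cover chr3:89136373-89136622 on the plus strand.
*Pklr*, downstream start: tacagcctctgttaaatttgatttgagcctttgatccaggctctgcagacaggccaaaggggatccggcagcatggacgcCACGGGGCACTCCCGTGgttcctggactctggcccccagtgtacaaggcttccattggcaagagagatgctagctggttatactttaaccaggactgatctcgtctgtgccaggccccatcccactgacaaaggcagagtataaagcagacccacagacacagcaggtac

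The bases before the *Txnip* start, chr3:96557707-96557956 on the plus strand, held no match to the strict element or the E-box. They held 1 match to the relaxed element, 85 to 69 bases before the start at chr3:96557872-96557888. This match falls inside an exon of *Gm15441*, which runs the opposite way.
*Txnip*: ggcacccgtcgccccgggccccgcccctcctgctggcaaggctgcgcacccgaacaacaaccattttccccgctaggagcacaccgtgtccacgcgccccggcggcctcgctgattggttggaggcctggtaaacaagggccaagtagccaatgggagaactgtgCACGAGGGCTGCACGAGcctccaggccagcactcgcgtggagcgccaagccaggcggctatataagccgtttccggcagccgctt

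An E-box was found in 4 members, *Mlxipl*, *Mlx*, *Arrdc4* and *Khk*, with 1 match each. In *Mlxipl* it preceded the upstream of the 2 starts, which gives the shorter ChREBP-beta form, and the start of the full-length form held no match to any of the 3 motifs. The *Khk* match lies inside an annotated exon of *Khk* itself, because other transcripts of the gene start earlier. The sequences below give the E-box with its flanks, in the direction of the gene, for *Mlxipl* at chr5:135089780-135089809, *Mlx* at chr11:101087238-101087267, *Khk* at chr5:30921476-30921505, all on the plus strand, and *Arrdc4* at chr7:68749414-68749443 on the minus strand.
*Mlxipl*, upstream start: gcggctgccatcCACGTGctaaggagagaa
*Mlx*: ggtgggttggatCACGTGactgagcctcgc
*Arrdc4*: aaaggtcctgtgCACGTGcactatggtgtc
*Khk*: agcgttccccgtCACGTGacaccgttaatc

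Over all 32851 RefSeq start windows of the same length, the E-box was present in 6.02%, the strict element in 0.0396%, or 13 windows, and the relaxed element in 0.919%. Among the 9 windows of the members, the E-box was present in 4, the strict element in 1 and the relaxed element in 2. The relaxed windows are that of *Txnip* and the *Pklr* window already counted for the strict element. Because the relaxed form was chosen with these sequences seen, its share among the members cannot be weighed against that of all windows. The members were grouped by their relation to ChREBP, so their shares for the E-box and the strict element are a description and were not tested. *Tkfc* held none of the motifs in its window, chr19:10604259-10604508 on the minus strand. That window lies inside the annotated gene, whose span reaches 10605654, so bases before the outermost *Tkfc* start were not searched. These matches describe letters in a window and no binding was measured in these samples.

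**Figure D1:**
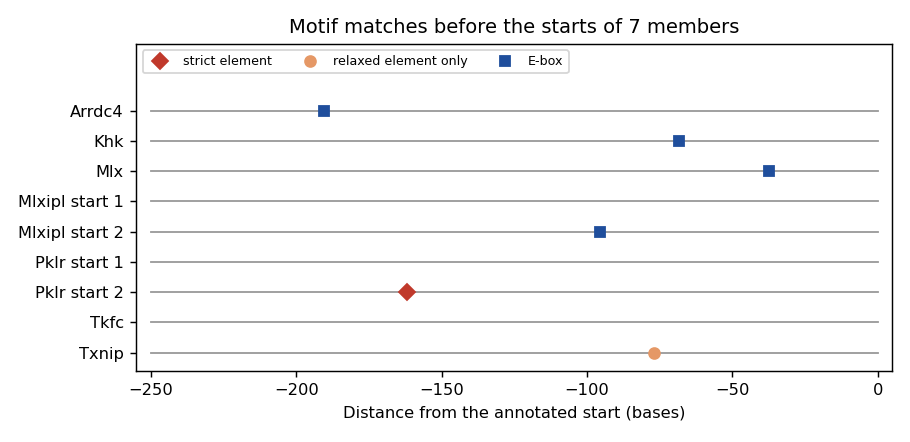
Matches to 3 motifs in the 250 bases before the starts of 7 members, with the distance from the annotated start in bases on the horizontal axis and 1 line for each of 9 starts. Squares are E-boxes, the diamond is the strict carbohydrate response element of *Pklr* and the circle is the relaxed element of *Txnip*; 3 lines carry no match.

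All 8 members had a mean normalized count of at least 10, from 551 for *Arrdc4* to 9087 for *Tkfc*, and together they took 0.114% of the summed means. Levels between genes were compared as the mean normalized count per kilobase of merged annotated exons, among 12499 genes with a mean of at least 10 and an annotated length. The median of these genes was 94.6 per kilobase and the 90th percentile was 906. All 8 members lay above the median and 5 lay above the 90th percentile, and the median of the members was at percentile 91.2.

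**Figure D2:**
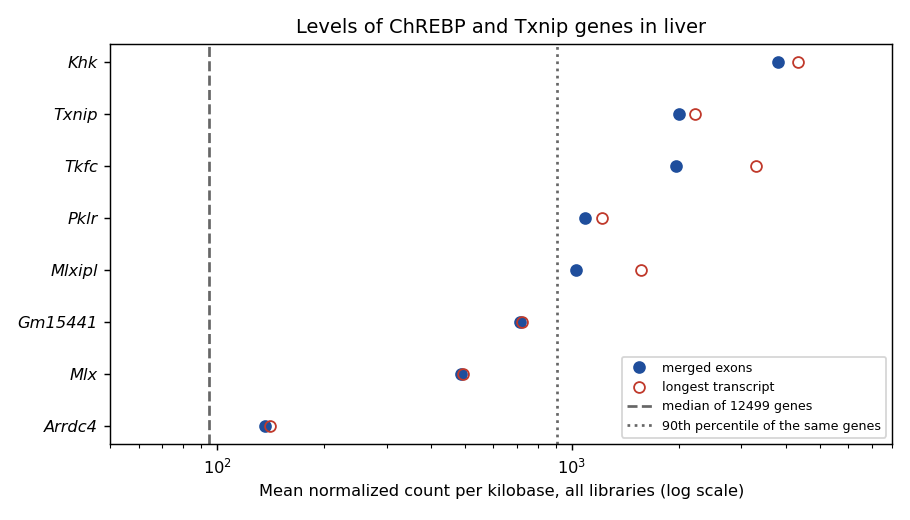
Mean normalized count per kilobase over all libraries, on a log axis, for the 8 members. Filled points divide by merged exons and open points by the longest transcript; the dashed line is the median of the genes compared, 94.6 per kilobase, and the dotted line their 90th percentile, 906. *Khk* is highest and *Arrdc4* lowest by either length.

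*Mlxipl* (ENSMUSG00000005373.13) is located at chr5:135089890-135138382 on mm10, plus strand. Its mean normalized count was 5679, and its level per kilobase was 1026, at percentile 91.0. Divided by its longest transcript the level was 1568 per kilobase, because 10 annotated transcripts share the locus and their merged exons are longer than any of them. Gene-level values do not separate ChREBP-alpha from ChREBP-beta. *Mlx* (ENSMUSG00000017801.15, chr11:101087277-101092207, plus strand) had a mean normalized count of 970 and a level per kilobase of 485, at percentile 83.2. The transcription factor was thus listed above its obligate partner by a ratio of 2.11 per kilobase, 3.18 with the longest transcripts and 5.85 without division by length. Of the 10 other genes fixed as the MLX and MAX network, whose proteins dimerize with MLX or MAX, 9 had a mean of at least 10 and 3 of these lay above the median of all genes. Among these 9, the highest per kilobase were *Myc* (204) and *Max* (188), and the lowest were *Mycn* (4.11) and *Mlxip* (32.9). *Mlxip* encodes MondoA, the ChREBP relative that predominates in muscle, and *Mlxipl* exceeded it by a ratio of 31.2 per kilobase and of 20.7 without division by length.

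*Txnip* (ENSMUSG00000038393.14) lies at chr3:96557957-96561883 on the plus strand. It had a mean normalized count of 6268 and a level of 2007 per kilobase, at percentile 94.9 and second among the members. *Arrdc4* (ENSMUSG00000042659.15, chr7:68736995-68749241, minus strand), the arrestin closest to *Txnip*, likewise limits glucose uptake. Its mean normalized count was 551 and its level per kilobase 136, at percentile 58.9, the lowest of the 8. *Txnip* thus stood above *Arrdc4* by a ratio of 14.7 per kilobase. Among the other alpha-arrestins, *Arrdc3*, an adaptor in receptor turnover, had a level of 931 per kilobase, *Arrdc2* 123 and *Arrdc1* 43.9, and *Arrdc5* was listed at 0. The order of *Arrdc4* and *Arrdc2* depended on the length used, with ratios of 1.11 for merged exons and 0.833 for the longest transcripts. The thioredoxin system, whose reductive capacity TXNIP restrains, was measured for 6 of 6 genes, all above the median of all genes. *Txn1*, the cytosolic thioredoxin bound by TXNIP, had a level of 4753 per kilobase, 2.37 times that of *Txnip* (0.797 times without division by length, where the order turned), followed by the mitochondrial *Txn2* at 1016. The lowest were the reductases *Txnrd2* (262) and *Txnrd3* (130).

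*Gm15441* (ENSMUSG00000074398.5) is annotated as an antisense gene at chr3:96555765-96566801 on the minus strand, and its span contains all of *Txnip*. Its mean normalized count was 1193 and its level per kilobase 712, at percentile 87.9. *Txnip* exceeded it by a ratio of 2.82 per kilobase and of 5.26 without division by length. The merged exons of the pair share 606 bases in 2 stretches, which make up 19.4% of the *Txnip* exons and 36.2% of those of *Gm15441*. The first stretch has 441 bases and begins at the *Txnip* start, and the second has 165 bases and lies at chr3:96559678-96559842. Of the shared bases 327 are coding in *Txnip* and 279 are untranslated. Of the 2 annotated *Gm15441* transcripts, 1 holds all 606 shared bases, and the other begins 142 bases upstream of the *Txnip* start and shares 0. The second stretch is printed on the *Txnip* strand because a read from it belongs to either gene unless strand is used, and it is coding throughout in *Txnip*.
*Txnip*, shared with *Gm15441*: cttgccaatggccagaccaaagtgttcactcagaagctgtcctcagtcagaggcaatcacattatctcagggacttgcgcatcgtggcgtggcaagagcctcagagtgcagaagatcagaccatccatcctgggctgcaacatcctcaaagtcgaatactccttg

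Whether the authors counted by strand is not given in the sources used here. Without strand, reads from the 606 shared bases cannot be told apart, and the mean levels of *Txnip* and *Gm15441* are uncertain to that extent. By length, exons outside the shared stretches make up the larger part of both genes. The uncertainty is greater for *Gm15441*, because *Txnip* had the higher level, 2007 against 712 per kilobase, and 36.2% of the *Gm15441* exons are shared. If strand was not used, the value of *Gm15441* could consist largely of *Txnip* reads, and the ratio between the 2 genes would then not hold.

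**Figure D3:**
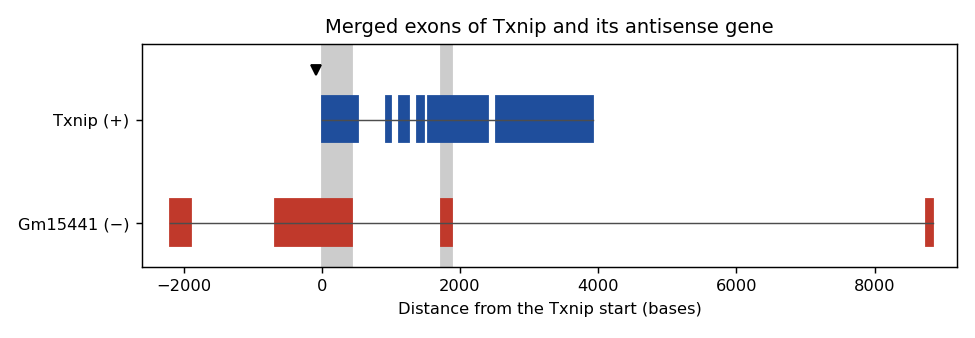
Merged exons of *Txnip* on the plus strand and *Gm15441* on the minus strand against the distance from the *Txnip* start in bases. Grey bands are the 2 shared stretches of 441 and 165 bases, thin lines are the gene spans, and the triangle is the relaxed element before the *Txnip* start, which lies over the large *Gm15441* exon.

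Of the 3 enzymes, *Khk* ranked 1, *Tkfc* 3 and *Pklr* 4 among the members per kilobase of merged exons. *Pklr* ranked 5 with the longest transcript and without division by length. *Pklr* (ENSMUSG00000041237.12, chr3:89136142-89146784, plus strand), the pyruvate kinase of liver and red cells that catalyses the last step of glycolysis, had a mean normalized count of 3519 and a level per kilobase of 1087, at percentile 91.4. *Pkm*, the pyruvate kinase of muscle and most other tissues, had a level of 66.6 per kilobase. The ratio of *Pklr* to *Pkm* was 16.3 per kilobase, 8.85 with the longest transcripts and 10.6 without division by length. *Khk* (ENSMUSG00000029162.15, chr5:30921431-30931248, plus strand) encodes ketohexokinase, which phosphorylates fructose. It had a mean normalized count of 6852 and the highest level per kilobase of the members, 3813, at percentile 97.2. *Tkfc* (ENSMUSG00000034371.9, chr19:10587791-10605654, minus strand) encodes triokinase, which phosphorylates the glyceraldehyde released from fructose. It had the highest mean normalized count, 9087, and a level of 1968 per kilobase, at percentile 94.8. Its level was 3295 per kilobase when divided by the longest transcript, which placed it above *Txnip*.

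A further 20 genes of glucose and fructose handling were listed. All 20 had a mean of at least 10, and 15 lay above the median of all genes. Among them *Sord*, the sorbitol dehydrogenase that forms fructose, had a level of 15157 per kilobase, above that of *Khk*. The lowest were the hexokinases *Hk2* (6.77 per kilobase) and *Hk1* (11.7). A further 14 genes fixed as ChREBP targets in liver had a median at percentile 86.1, and 12 lay above the median of all genes. The stearoyl-CoA desaturase *Scd1* (24341 per kilobase) and the glycerol-3-phosphate dehydrogenase *Gpd1* (5374) were highest, and *Pnpla3* (7.93), a lipid droplet protein, and *Acaca* (46.6), acetyl-CoA carboxylase, were lowest.

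**Figure D4:**
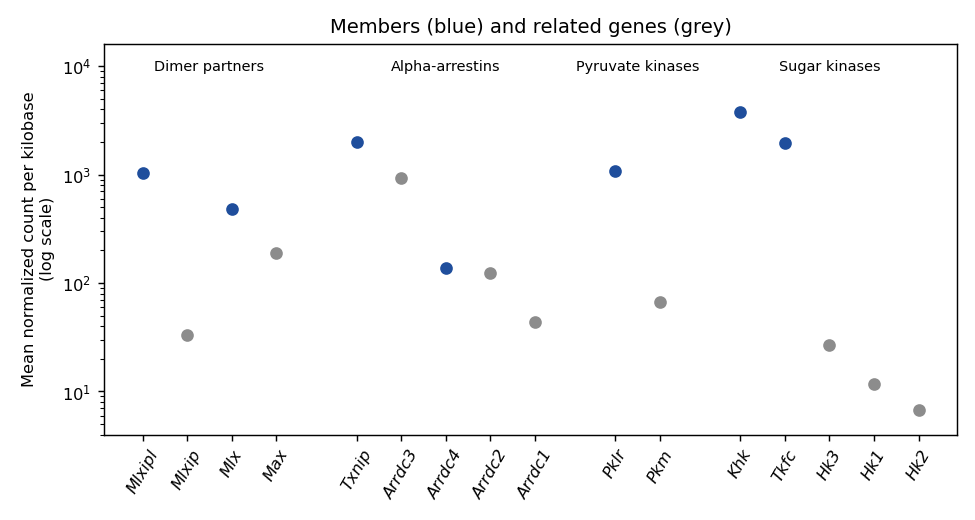
Mean normalized count per kilobase of merged exons, on a log axis, for members in blue and related genes in grey, grouped as dimer partners, alpha-arrestins, pyruvate kinases and sugar kinases. *Arrdc5*, listed at 0, is not drawn; *Khk* at 3813 lies above each hexokinase drawn, of which *Hk2* is lowest at 6.77.

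Exons of other genes lie over most of the members. In the annotation, 6 of the 8 share exonic bases with a gene on the opposite strand, and *Arrdc4* and *Khk* do not. *Txnip* and *Gm15441* are counted for sharing exons with each other. The share of all annotated genes with such an overlap was not computed, so whether this count is unusual was not assessed. *Pklr* shares 711 bases of its untranslated exons with the ion channel gene *Hcn3*, which had a mean normalized count of 3.57, and *Mlx* shares 385 with *Psmc3ip*, a meiotic recombination gene with a mean normalized count of 8.16. *Tkfc* shares 596 bases with *Cyb561a3* and 328 with *Ddb1*, a subunit of a ubiquitin ligase. *Ddb1* had a mean normalized count of 7489 and *Cyb561a3* of 509, so that the value of *Tkfc* could hold reads of an abundant neighbour if strand was not used, over 7.10% of its exonic bases in the case of *Ddb1*. *Mlxipl* shares 235 bases with the antisense gene *Gm43500*, for which the authors list no mean normalized count.

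Markers of other liver cells were also present at lower levels. The sums that follow run over lists of unlike length and do not measure shares of cell types. In the hepatocyte list *Alb* alone had a level of 920387 per kilobase. The summed level of the marker lists was 2825 per kilobase for 6 Kupffer cell genes, 973 for 6 endothelial genes, 873 for 4 stellate cell genes, 140 for 4 cholangiocyte genes, 216 for 2 neutrophil genes and 31.3 for 3 lymphocyte genes, against 1349851 for 7 hepatocyte genes. The red cell genes *Hba-a1*, *Hbb-bs* and *Hbb-bt* were each listed at 0. The annotation and counting settings are not given in the sources used here, so these values do not show whether red cell RNA was present. *Pklr* is also used in red cells, and the part of other cell types in the levels of the members was not tested.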

How the data were processed

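Liver mRNA of 3 WT and 3 *Pai-1*+/- mice was sequenced, and reads were aligned to mm10 with STAR and compared with DESeq2 by the authors. The labels also name HOMER. Annotation, versions and strand setting are not given in the sources used here. As signal, the authors deposited 1 value per gene, the average across libraries of counts scaled by size factors. The log2 fold changes, standard errors, Wald statistics and p-values there are the authors' own comparison and were not used. A deposited table of counts has 6 columns headed by animal numbers that match no label, and these were not used. The planned edgeR test was therefore not run, and no depth per library is given.

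Exons were taken from GENCODE M21, whose GRCm38 assembly is mm10. Of 12971 genes with a mean of at least 10, 96.4% matched 1 gene by symbol. Levels were divided by kilobases of merged exons. A percentile is the share of these genes at or under a value. The calculations were tested on simulated data. Python 3.11.15 and Matplotlib 3.10.9 were used. Members and lists were chosen with earlier results of these data known. The rule named the members, genes sharing their exons and the 2 highest and 2 lowest genes of each list. *Pkm* and *Hk3* were added after their values were seen. The results of some genes the rule would name are not reported here.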

Additional observations from a re-analysis of the deposited data

How the results depend on the processing

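The median percentile of the 8 members, 91.2 per kilobase of merged exons, was 91.0 with the length of the longest transcript, 93.5 among all genes with a value above 0 and 92.7 without division by length. Single members moved by up to 6.58 percentile points with the longest transcript, 10.8 among all genes and 14.0 without division by length. The order of the members changed for 4 genes with the longest transcript and for 5 without division by length. The ratio of *Mlx* to *Max* moved from 2.58 to 1.42 per kilobase with the longest transcripts. No paired analysis was possible because no column of the counts could be matched to a sample. For the same reason the alternatives planned for a difference between genotypes, which were DESeq2 size factors, no filter, the DESeq2 test, leaving out each replicate and a replicate block, were not run. With 1 pooled mean per gene, the precision between animals was not assessed.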
